A study of Mus musculus with 92 samples.

Results

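The genes described here encode lysosomal enzymes and membrane proteins, the acid hydrolases that digest proteins, sugars and lipids inside the lysosome and the proteins that build its membrane. They are a list of 40 gene names, matched to the gene column of an expression table with 29956 named genes, and all 40 were found there. The list holds 7 cysteine proteases (Ctsb, Ctsc, Ctsh, Ctsl, Ctss, Ctsz and Lgmn), 3 other proteases (Ctsa, Ctsd and Tpp1), 11 glycosidases (Gaa, Gla, Glb1, Gusb, Hexa, Idua, Man2b1, Manba, Naglu, Neu1 and Fuca1) and 3 sulfatases (Sgsh, Arsa and Arsb). It also holds 8 lipid enzymes and activators (Galc, Asah1, Smpd1, Lipa, Ppt1, Gm2a, Psap and Npc2), 6 membrane proteins (Lamp1, Lamp2, Scarb2, Cd63, Mcoln1 and Npc1) and 2 subunits of the proton pump (Atp6v0d1 and Atp6v1h).

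Lysosomes are acidic compartments in which macrophages and microglia break down what they engulf, including dying cells, myelin and microbes. Their hydrolases are made as precursors in the endoplasmic reticulum, carried to the lysosome by sorting receptors and activated at the low pH that a proton pump maintains. Factors of the MITF and TFE family bind a palindromic sequence near many lysosomal genes, and inherited loss of single hydrolases causes storage diseases, many of which damage the brain.

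The samples are 92 bulk RNA sequencing libraries from mouse macrophages, their progenitors and cells sorted from brain. ER-Hoxb8 cells are bone marrow progenitors that estrogen keeps dividing through a fused Hoxb8, and that become macrophages once the hormone is withdrawn. Libraries were put on a log2 CPM scale (the log2 of reads scaled to a common library size) in 6 separate sets, recognized by their shared lowest value, and groups were compared only inside a set. With a prior count of 2 assumed, the lowest value of each set corresponds to a mean depth of 40.6, 24.5, 21.5, 17.1, 23.6 and 13.7 M reads.

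The first set holds progenitors and monocytes isolated from bone marrow of FVB WT mice (BM progenitors and BM monocytes), Cas9 het ER-Hoxb8 progenitors of FVB origin and the same kind of cells at day 4 of differentiation, with 3 libraries each. The authors derived 3 separate ER-Hoxb8 lines for this comparison, and the labels do not name the line of a library. Next come macrophages grown for 7 days from FVB WT bone marrow (BMD macrophages) or from FVB Cas9 het ER-Hoxb8 cells, 3 libraries each, and cells sorted from brain. Among the latter, 6 libraries come from WT bone marrow cells (BMD MLCs) and 6 from ER-Hoxb8 cells labelled WT (ER-Hoxb8 MLCs) after intracerebral injection into newborn CSF1R KO hosts, which lack microglia of their own, and 9 come from microglia of uninjected FVB WT mice. Microglia libraries 8 and 9 are named YSWT and the other microglia libraries WT. The ER-Hoxb8 MLC libraries are 3 named GFPHox and 3 named WTHox, and the cultured ER-Hoxb8 cells carry Cas9 while those from brain are labelled WT, so line and place cannot be told apart. Brain cells were also sorted and extracted by another protocol than cultured cells, which cannot be told apart from the place either.

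Other sets hold Cas9 het ER-Hoxb8 cells that carry a non-targeting guide (NTC) or a guide against Adar. These are lines of transduced, sorted cells. The labels name no separate lines for a guide, so standard errors and p-values for these sets describe the spread among libraries. They do not cover the spread among separately made lines, and a guide and the line that carries it cannot be told apart. For sgRNA #1 there are 3 libraries each of KO progenitors, NTC progenitors and KO macrophages, and 3 of NTC macrophages. NTC macrophage library 2 has its own lowest value, so it is described by level alone and the tests use libraries 1 and 3. The sgRNA #2 cells, 3 progenitor and 5 macrophage libraries, have no NTC libraries in their set. A last set of 33 libraries holds NTC and sgRNA #1 KO macrophages grown for 7 days with baricitinib, an inhibitor of the JAK kinases that relay interferon signals, at 0, 0.0006, 0.016, 0.4 and 10 uM by their titles. Progenitors grew in RPMI with beta-estradiol and GM-CSF and macrophages in DMEM with M-CSF.

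Sequence just upstream of several of these genes is printed here because members of the list fell together when cells labelled Adar KO received baricitinib, as given below. RefSeq promoter entries (GRCm38.p6) exist for 35 of the 40 members, with 38 entries, of which Ctsa, Lgmn and Psap have 2 each. Asah1, Ctsb, Npc1, Atp6v1h and Ctsh have none. Each entry runs from 250 bases before the start to 50 bases after it. The letters CACGTG, a palindrome and so the same on both strands, occur in 13 of 35 members (13 of their 38 entries) and in 7.15 percent of all 32851 entries. These members are Arsa, Atp6v0d1, Ctsa, Ctsd, Ctsl, Gaa, Gla, Glb1, Lamp1, Lgmn, Mcoln1, Naglu and Sgsh. The wider TCACGTGA, which contains the first, occurs in Atp6v0d1, Ctsa, Ctsd, Gla and Mcoln1 (5 of 35, or 5 of 38 entries) and in 0.974 percent of all entries. GTCACGTGAC, wider again, occurs in 0 of 35 members and in 0.326 percent. GAGGAAGT, an ETS-type sequence searched on both strands, occurs in Ctsc, Ctss, Gla and Gusb (4 of 35, or 4 of 38 entries) and in 3.2 percent of all entries. A match describes these letters in this window and nothing more.

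The 250 bases before the start are shown 5′ to 3′ for the protease gene Ctsd (chr7:142387828-142388077, minus strand), the glycogen-digesting Gaa (chr11:119267713-119267962, plus strand), the sulfatide-digesting Arsa (chr15:89477425-89477674, minus strand), the galactosidase gene Gla (chrX:134601006-134601255, minus strand) and the membrane protein gene Lamp1 (chr8:13158911-13159160, plus strand). Capitals mark CACGTG, widened to TCACGTGA where the outer letters match. Ctsd, Gaa and Arsa were chosen from the largest falls under baricitinib, and Gla and Lamp1 for carrying several copies.
Ctsd: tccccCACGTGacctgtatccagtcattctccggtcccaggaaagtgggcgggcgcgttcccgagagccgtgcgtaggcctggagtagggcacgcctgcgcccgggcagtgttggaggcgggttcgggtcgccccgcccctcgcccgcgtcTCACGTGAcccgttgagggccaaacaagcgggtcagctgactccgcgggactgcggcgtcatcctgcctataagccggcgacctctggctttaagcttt
Gaa: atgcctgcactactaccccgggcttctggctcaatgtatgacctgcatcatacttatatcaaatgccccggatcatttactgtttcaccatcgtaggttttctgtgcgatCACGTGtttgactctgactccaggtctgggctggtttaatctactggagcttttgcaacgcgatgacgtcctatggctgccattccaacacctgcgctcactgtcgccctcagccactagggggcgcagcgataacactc
Arsa: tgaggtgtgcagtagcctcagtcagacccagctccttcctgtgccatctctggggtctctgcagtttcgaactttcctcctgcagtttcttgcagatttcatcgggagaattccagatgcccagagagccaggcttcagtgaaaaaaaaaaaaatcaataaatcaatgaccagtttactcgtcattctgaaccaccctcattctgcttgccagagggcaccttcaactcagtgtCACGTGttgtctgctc
Gla: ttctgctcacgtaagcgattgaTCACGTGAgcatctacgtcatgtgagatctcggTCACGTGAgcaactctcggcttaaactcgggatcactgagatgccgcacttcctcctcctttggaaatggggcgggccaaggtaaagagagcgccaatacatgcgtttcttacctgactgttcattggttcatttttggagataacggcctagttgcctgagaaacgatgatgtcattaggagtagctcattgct
Lamp1: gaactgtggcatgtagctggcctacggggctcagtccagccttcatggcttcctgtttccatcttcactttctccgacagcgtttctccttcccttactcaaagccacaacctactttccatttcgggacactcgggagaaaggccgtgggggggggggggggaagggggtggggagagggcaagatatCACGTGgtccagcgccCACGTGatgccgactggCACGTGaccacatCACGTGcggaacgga

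Counted in bases before the start, the Ctsd matches lie at 245 and 98, the Gaa match at 140 and the Arsa match at 16. The Gla matches lie at 227 and 194, and the Lamp1 matches at 61, 45, 28 and 15. The entries of Idua and Psap, which also fell strongly with baricitinib, hold none.

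Before the comparisons, the labels were read against marker genes. Summed over 6 microglia markers (P2ry12, Tmem119, Sall1, Siglech, Gpr34 and Olfml3), microglia libraries reached 33120 to 45230 CPM (median 37950), with P2ry12 the most abundant and all 6 above 1 CPM in each library. The same sum was 1865 to 6506 CPM in BMD MLCs (median 5108) and 94.3 to 4178 CPM in ER-Hoxb8 MLCs (median 1346), with Gpr34 the most abundant. Cultured ER-Hoxb8 macrophages held 47 to 256 CPM, so the lowest ER-Hoxb8 MLC library lay within their range. In the cultured libraries 2 of the 6 genes were above 1 CPM, against 5 or 6 in ER-Hoxb8 MLCs. Summed macrophage markers (6 genes, Csf1r, Emr1, Cd68, Fcgr1, Mertk and Itgam) were 136 to 223 CPM in BM progenitors and 6654 to 8932 CPM in BMD macrophages. In ER-Hoxb8 progenitors of the first set this sum spread over 2144, 4751 and 458 CPM, so library 2 carried macrophage transcripts near the level of day 4 cells (3624 to 6697 CPM). Cd68 belongs to this marker list and also to the list of other lysosomal membrane proteins used below.

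A neutrophil sum of 10 markers (Elane, Mpo, Prtn3, Ltf, S100a8, S100a9, Camp, Ngp, Mmp8 and Retnlg) differed among the brain libraries. In BMD MLCs the neutrophil sum was 8577, 5022, 33150, 35320, 35230 and 34400 CPM in libraries 1 to 6, and in ER-Hoxb8 MLCs 870, 278, 390, 21950, 46350 and 4045 CPM. Microglia held 469 to 6823 CPM (median 2105) and cultured macrophages of the set 26.7 to 131 CPM. In the brain libraries 7 to 10 of the 10 genes were above 1 CPM, none was at the set's lowest value, and Ngp was the most abundant in nearly every library. Every brain library was above the cultured macrophages, and BMD MLC libraries 3 to 6 and ER-Hoxb8 MLC libraries 4 and 5 carried the most granulocyte transcripts. The part of these transcripts in the differences below was not tested beyond leaving libraries out. In bulk samples, fewer cells of a type and less RNA per cell cannot be told apart.

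Progenitor markers (5 genes) summed to 359 to 542 CPM in BM progenitors, 120 to 130 CPM in NTC progenitors and 19.7 to 96.8 CPM in ER-Hoxb8 progenitors, and monocyte markers (4 genes) to 4767 to 9130 CPM in BM monocytes against 418 to 1469 CPM in BM progenitors. In the second set the monocyte sum was 1110 to 5666 CPM in BMD MLCs (median 3512) and 157 to 8677 CPM in ER-Hoxb8 MLCs (median 1910), against 6.53 to 12.8 and 37.6 to 191 CPM in BMD and ER-Hoxb8 macrophages and 32.4 to 460 CPM in microglia (median 164). Border macrophage markers (5 genes) gave 1889 to 3490 CPM in BMD MLCs, 272 to 1246 CPM in ER-Hoxb8 MLCs and 18.8 to 172 CPM in microglia. Erythroid markers (3 genes) reached 3132 CPM in BM progenitors, 4690 CPM in an ER-Hoxb8 MLC library and 4542 CPM in a microglia library. Lymphocyte markers (4 genes) were highest in BM progenitors, at 83.8 to 497 CPM, and reached 188 CPM in a single ER-Hoxb8 MLC library. Astrocyte (5 genes), oligodendrocyte (5 genes) and neuron markers (5 genes) peaked among sorted brain cells in microglia, at 769, 634 and 145 CPM. Endothelium markers (5 genes) did not pass 97.7 CPM in any brain library.

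For the edited cells the Adar transcript was read first. Adar, the RNA-editing enzyme, measured 6.96, 7.15 and 7.01 log2 CPM in macrophages labelled Adar KO with sgRNA #1 and 5.73 and 5.67 in NTC macrophages 1 and 3 (library 2, 5.86). It was higher in the libraries labelled KO (1.34, SE 0.21, adjusted p = 0.000976), with no overlap. Values for progenitors overlapped, at 4.36, 4.23 and 4.24 with the guide and 4.20, 3.42 and 4.28 in NTC (0.31, SE 0.19, adjusted p = 0.927). Macrophages made with sgRNA #2 had 7.02, 7.00, 7.02, 7.03 and 6.99 against 4.35, 4.56 and 4.36 in their progenitors. In the baricitinib set Adar stood at 7.42, 6.52 and 6.37 in KO and 5.12, 4.94 and 4.69 in NTC without drug (1.85, SE 0.48, adjusted p = 0.00513), and at 1.55, 2.15, 2.91 and 2.03 against 3.70, 3.64 and 3.22 at 10 uM (−1.36, SE 0.45, adjusted p = 0.0148). Small guide-made changes need not lower a transcript, so these values do not check the genotype, and directions below refer to libraries labelled Adar KO.

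Adar is itself an interferon-responsive gene, and a sum of 8 interferon response genes (Isg15, Ifit1, Ifit3, Irf7, Oasl2, Rsad2, Usp18 and Cxcl10) was read beside it. The interferon response sum was 7927, 6857 and 3723 CPM in sgRNA #1 KO macrophages, 106 and 94.1 CPM in NTC macrophages 1 and 3, and 7.84 to 10.3 CPM in all progenitors of that set. For sgRNA #2 it was 4790 to 5290 CPM in macrophages and 10.8 to 13.8 CPM in progenitors. Without baricitinib it was 2747 to 2927 CPM in KO and 40.1 to 58.4 CPM in NTC, and at 10 uM it was 8.81 to 11.6 and 6.30 to 8.77 CPM, higher in KO where Adar was lower. KO library 2 at 0.4 uM stood apart, with 18260 CPM against 10.4 and 62.1 CPM in its group, and its Adar value was 7.38 log2 CPM against 4.12 and 4.21. In ER-Hoxb8 MLCs the interferon response sum was 1246 to 3635 CPM (median 2105), in BMD MLCs 83.4 to 162 CPM and in microglia 9.05 to 45.3 CPM. Ifit3 or Oasl2 was the most abundant in the high groups, all 8 genes were above 1 CPM there, and the part of this response in the lysosomal differences was not tested.

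Members of the lysosomal list were abundant across the series. Inside each set that held them, the mean over the 40 genes was lower in progenitors than in macrophages, and in every group 39 or 40 of the 40 had a mean above 1 CPM. All 40 passed the filter on low values in each set. In the first set the mean was 5.59, 5.95 and 5.87 log2 CPM in BM progenitors, 7.10, 7.09 and 7.13 in BM monocytes, 7.54, 8.35 and 6.10 in ER-Hoxb8 progenitors and 8.69, 8.34 and 7.55 at day 4. BM progenitors lay below all others, while the ER-Hoxb8 progenitor libraries spread on either side of BM monocytes and overlapped with day 4.

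Cultured macrophages stood above brain cells in the second set. The mean was 8.97, 9.17 and 8.51 in BMD macrophages and 8.82, 8.75 and 8.71 in ER-Hoxb8 macrophages. Libraries from brain gave 8.11, 7.90, 7.45, 7.87, 8.22 and 8.12 in BMD MLCs, 7.97, 7.67, 7.69, 7.39, 6.70 and 7.12 in ER-Hoxb8 MLCs and 6.53 to 8.43 (median 7.96) in microglia. Every cultured macrophage library was above every brain library, and the 3 brain groups overlapped.

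In the edited lines the mean was 6.04, 5.97 and 5.87 in sgRNA #1 KO progenitors, 6.24, 6.11 and 6.07 in NTC progenitors, 8.59, 8.75 and 8.66 in KO macrophages and 8.84 and 8.78 in NTC macrophages 1 and 3 (library 2, 8.62). For sgRNA #2 it was 6.26, 6.24 and 6.18 in progenitors and 8.71, 8.67, 8.69, 8.71 and 8.67 in macrophages. Macrophages lay above progenitors in each line, whatever the guide. Across rising baricitinib doses the group means were 8.13, 8.00, 8.01, 7.93 and 7.73 in NTC macrophages and 8.45, 8.34, 8.24, 7.99 and 7.30 in KO macrophages. KO stood above NTC without drug and below it at 10 uM.

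**Figure D1:**
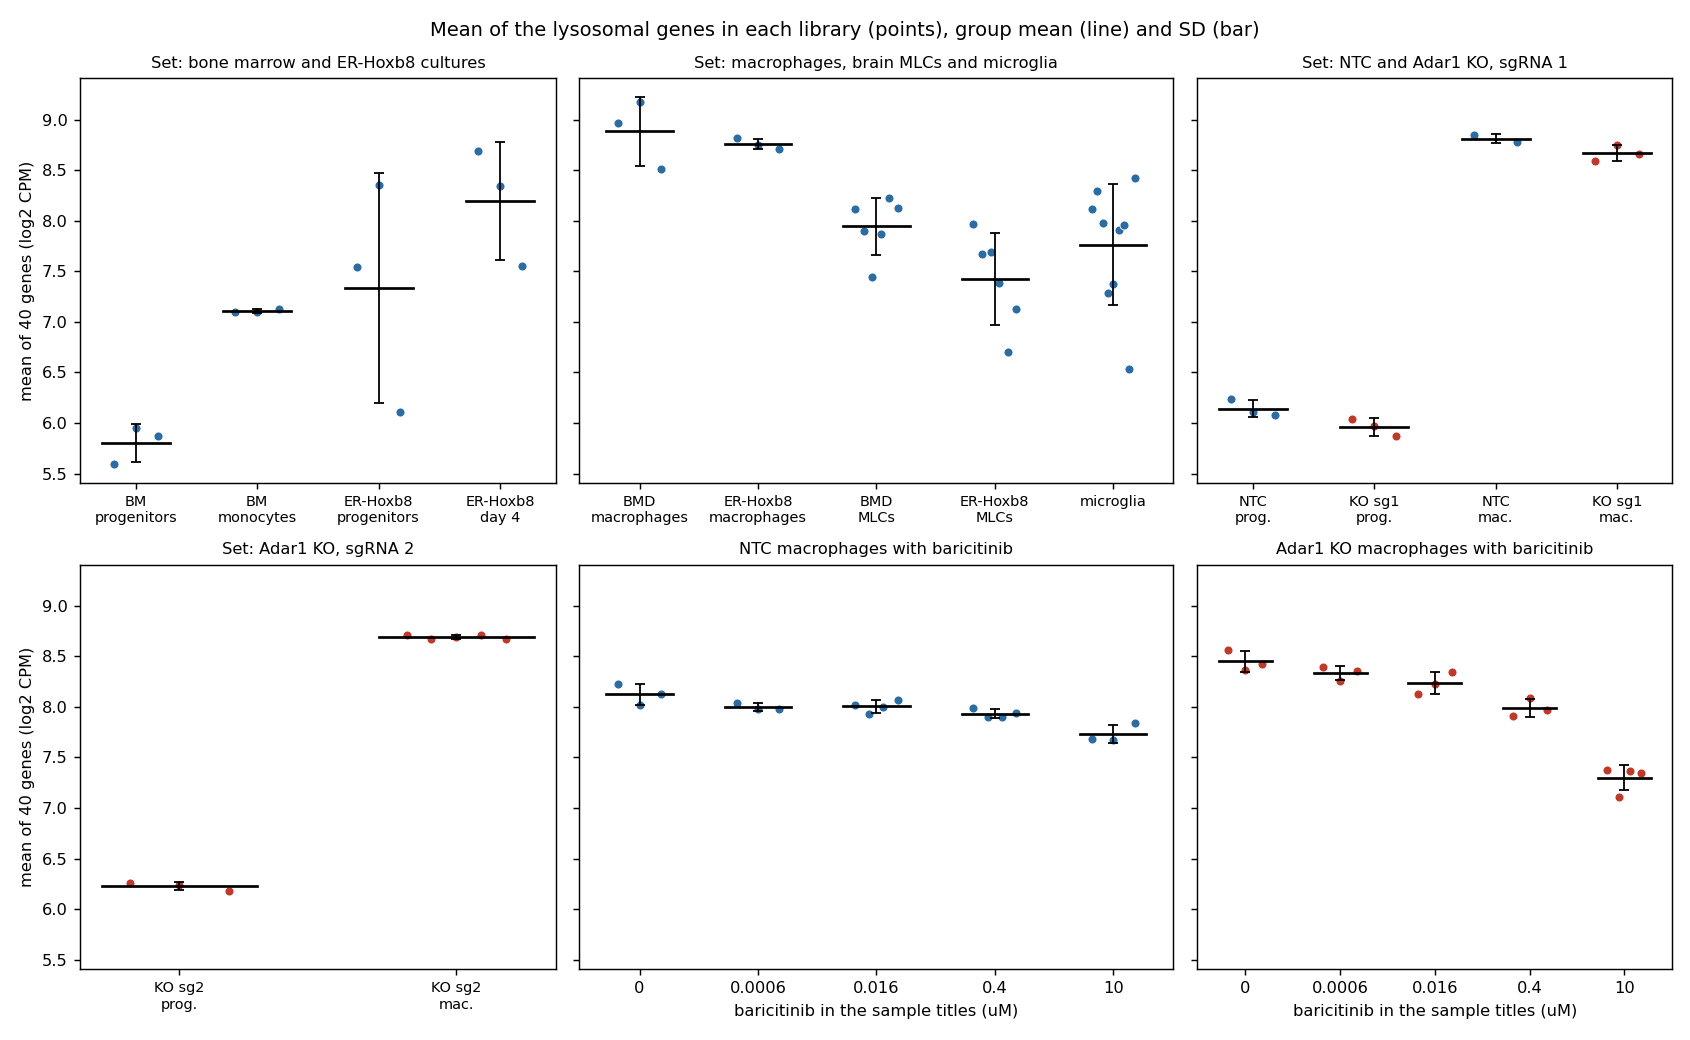
Mean log2 CPM of the 40 lysosomal genes in each library, with panels by normalization set and the baricitinib set divided into NTC and KO. Points are libraries, lines are group means and bars are standard deviations, and values are compared only inside a set.

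In the comparisons, each difference is a log2 fold change between group means with its standard error (SE). The adjusted p comes from a moderated t test in limma with the Benjamini-Hochberg method over all genes tested, and a gene is called at an adjusted p below 0.05. The largest differences named below are the largest among called genes. Counts of members by direction are given beside the percentage of all tested genes called in that direction. For a difference between effects that percentage covers both directions. Counts under alternative fits are given without one, so they cannot tell a change in the members from a change in calls over all genes. Counts for pathway and marker lists are to be read against the percentages given for the same comparison, and no list was tested against them.

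Many lysosomal genes had higher levels in BM monocytes than in BM progenitors (n = 3 and 3). Of the 40 members 13 were higher and 0 lower, against 6.96 and 6.79 percent of 12134 tested genes, and the median member difference was 1.25 against −0.09 for all genes. Ctsc, the dipeptidyl peptidase that activates granule serine proteases, measured 7.03, 7.89 and 7.56 log2 CPM in progenitors and 10.60, 10.73 and 10.87 in monocytes. Asah1, the acid ceramidase, measured 5.71, 6.16 and 5.80 against 8.54, 8.36 and 8.27. Neither gene overlapped between the groups, and the differences were 3.24 (SE 0.42, adjusted p = 0.00104) and 2.50 (SE 0.31, adjusted p = 0.000931).

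By role, the called members were 2 of 7 cysteine proteases (Ctsc and Ctsz), 1 of 3 other proteases, 3 of 11 glycosidases, 3 of 8 lipid enzymes and activators, 3 of 6 membrane proteins and 1 of 2 pump subunits, with 0 of 3 sulfatases. Besides those above, the largest differences among called members were the lipid-binding activator Gm2a (2.32, SE 0.61, adjusted p = 0.0286), the carboxypeptidase Ctsa (2.26, SE 0.62, adjusted p = 0.0338) and the cholesterol carrier Npc2 (2.05, SE 0.48, adjusted p = 0.0173). Larger than these but not called were Ctss (3.25, SE 1.22, adjusted p = 0.0986), Ctsh (2.98, SE 1.40, adjusted p = 0.175) and Psap (2.68, SE 1.15, adjusted p = 0.14). Lamp1 and Lamp2, the main glycoproteins of the lysosomal membrane, were both higher by 1.82. In 36 of the 40 genes every monocyte value was above every progenitor value, and in 1 below, against 22.6 and 26.4 percent of all genes. The count depends on the libraries, since leaving any 1 of the 6 out gave 2 to 7 calls, and a fit of these groups alone gave 33 (32 higher and 1 lower). Marker lists moved between these groups as well. Erythroid markers were lower in 3 of 3 genes (sums of 68.2 to 251 CPM in BM monocytes and 1394 to 3132 CPM in BM progenitors) and lymphocyte markers in 2 of 4 (22.5 to 27.8 and 83.8 to 497 CPM). Macrophage markers were higher in 2 of 6 genes (1303 to 1591 and 136 to 223 CPM), monocyte markers in 1 of 4 and border macrophage markers in 1 of 4 tested, and the part of these lists in the member differences was not tested.

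Among other genes of the pathway, 6 of 30 other hydrolases were higher in BM monocytes and 2 lower, led by the phosphodiesterase family gene Smpdl3a (2.83, SE 0.79, adjusted p = 0.0356) and the exonuclease gene Pld4 (2.78, SE 0.50, adjusted p = 0.00542), with the cathepsin gene Ctsf lower (−3.90, SE 1.15, adjusted p = 0.0455). Other membrane proteins were higher in 6 of 27 and lower in 1, with the metal transporter gene Slc11a1 up by 3.71. Other pump subunits were higher in 2 of 18, sorting genes higher in 2 and lower in 1 of 12, transcription and nutrient sensing genes higher in 1 of 15, and cysteine protease inhibitors higher in 1 of 3.

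ER-Hoxb8 progenitors also had higher levels of many lysosomal genes than BM progenitors (n = 3 and 3). Here 22 members were higher and 0 lower, against 11.3 and 14.3 percent of all genes, with a median of 1.53 against −0.08. Gla, which removes terminal galactose from lipids, measured −0.37, −0.29 and −0.26 in BM progenitors and 4.67, 3.58 and 3.64 in ER-Hoxb8 progenitors. The aspartic protease gene Ctsd measured 8.95, 8.73 and 8.77 against 14.78, 13.92 and 10.55. Both were higher in every ER-Hoxb8 library, and Ctsd library 3 was far below the other libraries of its group. The differences were 4.27 for Gla (SE 0.43, adjusted p = 2.74e-05) and 4.27 for Ctsd (SE 0.90, adjusted p = 0.00469).

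All 3 other proteases and both pump subunits were called, as were 7 of 11 glycosidases, 5 of 6 membrane proteins, 3 of 8 lipid enzymes and activators and 2 of 7 cysteine proteases, with 0 of 3 sulfatases. The cholesteryl ester hydrolase Lipa (3.27, SE 0.67, adjusted p = 0.00396), Ctsc (3.05, SE 0.42, adjusted p = 0.000256) and Asah1 (2.96, SE 0.31, adjusted p = 4.11e-05) completed the largest differences. Several genes spread widely inside the ER-Hoxb8 group. Lgmn, the asparaginyl endopeptidase, measured 4.21, 9.36 and 2.32, and the aminopeptidase gene Ctsh measured 1.16, 6.61 and −0.44. Library 2 was the highest for both, and it was also the library with most macrophage marker transcripts. These cells differ from BM progenitors in genotype and in culture as well, and those differences cannot be told apart. Marker lists moved between these groups too. The neutrophil sum was 6821 to 24330 CPM in BM progenitors and 241 to 4208 CPM in ER-Hoxb8 progenitors (8 of 10 genes lower, median −7.21), progenitor markers were lower in 4 of 5 genes, erythroid markers in 3 of 3, lymphocyte markers in 4 of 4, border macrophage markers in 2 of 4 tested and monocyte markers in 1 of 4, macrophage markers were higher in 4 of 6, and their part in the member differences was not tested.

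Pathway genes outside the list gave 11 higher and 3 lower of 30 other hydrolases, including Dpp7 (3.11) at the high end and Ctse (−7.03) and Smpdl3a (−5.22) at the low end. Other pump subunits were higher in 12 of 18, with Atp6v0d2, a subunit variant of macrophages and osteoclasts, at 5.91. Of 27 other membrane proteins 10 were higher and 3 lower. Transcription and nutrient sensing genes were higher in 6 of 15, among them the MITF family members Tfec (3.35, SE 0.74, adjusted p = 0.00604) and Mitf (2.54, SE 0.59, adjusted p = 0.00799). Sorting genes were higher in 4 and lower in 1 of 12, and inhibitors higher in 1 of 3.

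Between ER-Hoxb8 progenitors and day 4 cells (n = 3 and 3), limma called 0 of 40 members and 0 percent of all genes in either direction. At an unadjusted p below 0.05 there were 9 members and 1135 genes, and the median member difference was 0.53. Lgmn measured 10.04, 9.46 and 9.72 at day 4, just above the highest progenitor value given above. Ctsh measured 4.53, 6.77 and 3.67, which overlaps with progenitors, though each value was above that of the same-numbered progenitor library. A fit with the replicate number as a block also called 0 members. Leaving out progenitor library 2, the library with most macrophage markers, gave 12 called members, with no share of all genes given beside that count.

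With tighter replicates, the passage from progenitor to macrophage changed nearly the whole list. NTC macrophages 1 and 3 against NTC progenitors (n = 2 and 3) gave 36 members higher and 0 lower, where 33 and 38.5 percent of 11119 genes were called, and the medians were 2.11 for members and −0.08 for all genes. Ctss, which trims the invariant chain of MHC class II, measured 5.45, 4.97 and 4.64 in progenitors and 12.60 and 12.35 in macrophages. Ctsh measured 0.38, 0.76 and 0.10 against 7.54 and 7.39, and Lgmn 2.27, 3.35 and 2.93 against 9.52 and 9.36. The groups lay far apart for each of these proteases, and macrophage library 2, outside the test, had 12.29 for Ctss.

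All 7 cysteine proteases, 3 other proteases, 3 sulfatases, 8 lipid enzymes and activators and 6 membrane proteins were higher, with 9 of 11 glycosidases and 0 of 2 pump subunits. The largest differences were Ctss (7.46, SE 0.30, adjusted p = 1.73e-09), Ctsh (7.05, SE 0.43, adjusted p = 4.62e-08), Lgmn (6.59, SE 0.27, adjusted p = 2.24e-09), the endopeptidase gene Ctsb (5.90, SE 0.15, adjusted p = 9.83e-11) and Psap, precursor of the saposin activators (5.76, SE 0.23, adjusted p = 1.71e-09). Not called were Atp6v0d1 (0.14, SE 0.10, adjusted p = 0.251), Atp6v1h (0.12, SE 0.10, adjusted p = 0.331), the sialidase gene Neu1 (0.15, SE 0.13, adjusted p = 0.293) and the mannosidase gene Manba (0.01, SE 0.15, adjusted p = 0.944).

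Cells made with sgRNA #2 gave the matching comparison without NTC libraries (n = 5 macrophage and 3 progenitor libraries). All 40 members were called, 38 higher and 2 lower, against 39.6 and 41.5 percent of 10776 genes, with medians of 2.45 and −0.03. Ctsb measured 8.64, 8.57 and 8.57 in progenitors and 14.70, 14.54, 14.55, 14.55 and 14.54 in macrophages. Manba measured 5.53, 5.15 and 5.66 against 4.73, 4.23, 5.07, 5.17 and 4.52, and Neu1 8.38, 8.24 and 8.22 against 8.19, 8.07, 8.07, 8.14 and 8.06. Ctsb was far higher in macrophages, while the lower values of Manba and Neu1 were close to those of progenitors. The largest differences were Ctsb (5.98, SE 0.05, adjusted p = 8.98e-14), Ctss (5.69, SE 0.06, adjusted p = 3.69e-13), Lipa (5.35, SE 0.05, adjusted p = 1.5e-13), Psap (5.02, SE 0.06, adjusted p = 5.39e-13) and Ctsd (4.80, SE 0.07, adjusted p = 1.43e-12), and the glycosidases Manba (−0.70, SE 0.21, adjusted p = 0.0107) and Neu1 (−0.17, SE 0.05, adjusted p = 0.00897) were lower. Calls covered every role, with 9 of 11 glycosidases and both pump subunits higher.

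Pathway genes moved broadly in these lines. In NTC cells 22 of 27 other hydrolases were higher in macrophages and 2 lower, led by the collagen-cleaving cathepsin gene Ctsk (5.95, SE 0.27, adjusted p = 4.8e-09) and Ctse (5.15). Other membrane proteins were higher in 19 and lower in 3 of 26, from the peptide transporter gene Slc15a3 (7.52) and Slc11a1 (6.22) down to Cd164 (−2.24) and Laptm4b (−1.86). Other pump subunits were higher in 16 and lower in 1 of 18, including Atp6v0d2 (4.18) and Atp6v1a (2.48). Transcription and nutrient sensing genes were higher in 8 and lower in 2 of 14, with Mitf up (4.35, SE 0.14, adjusted p = 3.58e-10), Tfe3 up (2.76) and Tfec down (−6.96, SE 0.26, adjusted p = 9.48e-10). Sorting genes were higher in 4 and lower in 3 of 11, and inhibitors higher in 2 and lower in 1 of 3 (Cst3 4.06, Cst7 −4.10).

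With sgRNA #2, all 27 other hydrolases tested were higher in macrophages, with Ctse at 5.26 and Ctsk at 4.42. Other membrane proteins were higher in 21 and lower in 2 of 26 (Slc15a3 6.51), other pump subunits higher in 17 of 18 (Atp6v0d2 6.73) and sorting genes higher in 9 and lower in 1 of 12. Transcription and nutrient sensing genes were higher in 10 and lower in 2, with Mitf at 3.50 and Tfec at −5.35, and inhibitors higher in 2 and lower in 1 of 3. The neutrophil sum was 18960 to 27000 CPM in NTC progenitors, with Mpo the most abundant, and 15.3 and 20.9 CPM in their macrophages 1 and 3. Erythroid markers summed to 377 to 611 CPM in these progenitors and to 0.279 and 0.312 CPM in macrophages 1 and 3, while macrophage library 2, outside the tests, held 260 CPM. Macrophage markers were higher in macrophages in 6 of 6 genes in both experiments. With sgRNA #2 the neutrophil sum was 3447 to 3965 CPM in progenitors and 27.8 to 33.9 CPM in macrophages.

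Between ER-Hoxb8 and BMD macrophages (n = 3 and 3) no member passed the test. In this comparison limma called 0 of 40 members in either direction, against 0.348 percent of 12647 genes higher and 1.62 percent lower, with 2 members and 1086 genes at an unadjusted p below 0.05. The median member difference was −0.01. These members were Ctsl and Ctsh, and a difference that misses the threshold does not show equal expression. For Ctsb the values were 15.38, 15.52 and 14.19 in BMD and 15.15, 14.78 and 15.74 in ER-Hoxb8 macrophages (difference 0.19, SE 0.51, adjusted p = 1), and for Ctsh 7.55, 8.03 and 6.09 against 5.05, 6.56 and 5.81 (−1.41, SE 0.43, adjusted p = 0.11). Ctsl measured 8.78, 9.09 and 7.24 against 5.61, 5.23 and 8.17 (−2.03, SE 0.61, adjusted p = 0.0966). The groups overlapped for each of these genes. Leaving out ER-Hoxb8 macrophage 2 or 3 gave 1 call, and leaving out BMD macrophage 3 gave 2.

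A few pathway genes did separate these macrophages. Smpdl3a (−8.24, SE 1.15, adjusted p = 5.47e-05) and the acid phosphatase gene Acp5 (−5.80, SE 1.49, adjusted p = 0.0338) were lower in ER-Hoxb8 cells, within 1 higher and 3 lower of 31 other hydrolases, and the sulfatase gene Arsg was higher (3.27). Slc15a3 was lower by 2.88 among other membrane proteins (1 higher and 1 lower of 27), and the inhibitor gene Cst7 higher by 3.73 (1 of 6). No pump, sorting or transcription and nutrient sensing gene was called.

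Cells re-isolated from brain had many members lower than their cultured counterparts, while the few higher calls included several cysteine proteases. In BMD MLCs against BMD macrophages (n = 6 and 3), 6 members were higher and 14 lower, against 16.9 and 13.8 percent of all genes, and the medians were −1.06 for members and −0.01 for all genes. In ER-Hoxb8 MLCs against ER-Hoxb8 macrophages (n = 6 and 3), 5 were higher and 20 lower, against 16.6 and 18.1 percent, with medians of −1.51 and −0.15. In both origins the share of members called higher was no larger than that of all genes. Cysteine proteases were among the higher genes in both, while glycosidases, other proteases and pump subunits had only lower calls.

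Ctsh measured 9.40 to 9.77 (median 9.64) log2 CPM in BMD MLCs and 7.55, 8.03 and 6.09 in BMD macrophages. In ER-Hoxb8 cells it was 7.74 to 9.39 (median 8.82) in brain and 5.05, 6.56 and 5.81 in culture. Brain values lay above all culture values in both origins. Ctsc measured 10.91 to 11.81 (median 11.60) in BMD MLCs and 10.38, 9.18 and 10.02 in BMD macrophages, and 11.40 to 13.52 (median 12.65) against 10.42, 10.38 and 8.27 in ER-Hoxb8 cells. Here too the groups did not overlap. Fold changes for BMD cells were Ctsh (2.39, SE 0.38, adjusted p = 4.03e-05), Lgmn (1.64, SE 0.48, adjusted p = 0.0108), Ctsc (1.64, SE 0.43, adjusted p = 0.00548) and Ctss (0.92, SE 0.34, adjusted p = 0.0398), joined by Asah1 (0.77, SE 0.22, adjusted p = 0.0109) and Scarb2, the receptor that carries glucocerebrosidase to the lysosome (0.73, SE 0.27, adjusted p = 0.0368). For ER-Hoxb8 cells they were Ctsc (2.94, SE 0.43, adjusted p = 1.07e-05), Ctsh (2.85, SE 0.38, adjusted p = 2.52e-06), Lgmn (1.70, SE 0.48, adjusted p = 0.00781), Ctss (1.44, SE 0.34, adjusted p = 0.00204) and Scarb2 (0.80, SE 0.27, adjusted p = 0.0211).

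Ctsb went the other way, with 11.26 to 12.24 (median 12.02) in BMD MLCs and 15.38, 15.52 and 14.19 in BMD macrophages, and 10.71 to 12.17 (median 11.61) against 15.15, 14.78 and 15.74 in ER-Hoxb8 cells. Lipa measured 8.08 to 8.58 (median 8.29) against 12.39, 12.74 and 11.60, and 8.05 to 11.06 (median 9.14) against 12.42, 12.55 and 13.22. Ctsd measured 10.66 to 12.64 (median 11.89) against 15.27, 15.26 and 14.26, and 8.22 to 11.57 (median 9.53) against 14.83, 14.25 and 14.50. All brain values of these digestive enzymes were below all culture values of the same origin. Gla was low enough in brain for values to sit at the floor, with −3.62 to 1.19 (median −0.48) in BMD MLCs, of which library 3 was at the set's lowest value, against 4.84, 5.03 and 4.80 in BMD macrophages. In ER-Hoxb8 MLCs it was −0.32 to 2.13 (median 0.60) against 4.82, 4.45 and 5.43.

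The largest negative differences in BMD cells were Gla (−5.53, SE 1.00, adjusted p = 0.0002), Lipa (−3.95, SE 0.40, adjusted p = 9.79e-08), Ctsb (−3.10, SE 0.44, adjusted p = 1.03e-05), Ctsd (−3.07, SE 0.80, adjusted p = 0.00509) and Gaa (−2.84, SE 0.68, adjusted p = 0.00275). In ER-Hoxb8 cells they were Ctsd (−4.73, SE 0.80, adjusted p = 7.07e-05), Gla (−4.28, SE 1.00, adjusted p = 0.00198), Idua, which digests dermatan and heparan sulfate (−3.94, SE 0.86, adjusted p = 0.00103), the heparan sulfatase gene Sgsh (−3.90, SE 1.16, adjusted p = 0.0115) and Ctsb (−3.73, SE 0.44, adjusted p = 4.31e-07). Sgsh of ER-Hoxb8 MLC library 5 was at the set's lowest value, and without that library its difference was −2.68. Both pump subunits were lower in both origins, with Atp6v1h at −1.77 and −1.77. By role, BMD cells had 4 cysteine proteases higher and 2 lower, 2 other proteases, 4 glycosidases and 0 sulfatases lower, lipid enzymes and activators 1 higher and 2 lower, and membrane proteins 1 higher and 2 lower. ER-Hoxb8 cells had 4 cysteine proteases higher and 1 lower, 3 other proteases, 7 glycosidases, 1 sulfatase and 4 lipid enzymes and activators lower, and membrane proteins 1 higher and 2 lower.

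The test of the difference between origins called a single member, against 3.23 percent of all genes. Tpp1, the tripeptidyl peptidase, measured 8.48 to 8.98 (median 8.57) in BMD MLCs, 9.57, 9.69 and 8.97 in BMD macrophages, 6.89 to 8.06 (median 7.38) in ER-Hoxb8 MLCs and 9.73, 9.47 and 10.00 in ER-Hoxb8 macrophages. It was lower in brain in both origins, and the fall was larger in ER-Hoxb8 cells (difference of differences −1.49, SE 0.34, adjusted p = 0.0124). This call was lost without ER-Hoxb8 macrophage 3 or BMD macrophage 3 and without BMD MLC libraries 3 to 6, and with the WTHox libraries alone there were 2 calls.

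Among BMD MLCs, neutrophil markers were highest in libraries 3 to 6 and were also present in libraries 1 and 2. ER-Hoxb8 MLC libraries 4 and 5 carried high neutrophil sums too, as given above, and no fit left out only those libraries. A fit without BMD MLC libraries 3 to 6, leaving 2 BMD MLC libraries, called 7 members in BMD cells (1 higher and 6 lower). Leaving out BMD macrophage 2 alone gave 13. In the fit without BMD MLC libraries 3 to 6, the 5 largest differences in each direction kept their direction, with Ctsh at 2.53, Ctsc at 1.27, Ctsb at −3.07, Ctsd at −3.20 and Gaa at −2.28. Monocyte markers were higher in brain than in culture as well, in 4 of 4 genes for BMD and 3 of 4 for ER-Hoxb8 cells, as were neutrophil markers in 7 of 10 genes and erythroid markers in 2 of 2 tested in each origin. Interferon response genes were higher in 4 of 8 and 8 of 8, and lymphocyte markers in 0 and 3 of 3 tested. Microglia markers were higher in 6 and 5 of 6 genes, astrocyte markers in 2 and 3 of 4 tested and endothelium markers in 1 and 2 of 2 tested. Progenitor markers were higher in 2 and 1 of 3 tested, and macrophage markers were 2 higher and 1 lower of 6 in each origin. The part of these lists in the member differences was not tested. In ER-Hoxb8 cells a shift of all libraries to one median gave 6 higher and 20 lower.

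**Figure D2:**
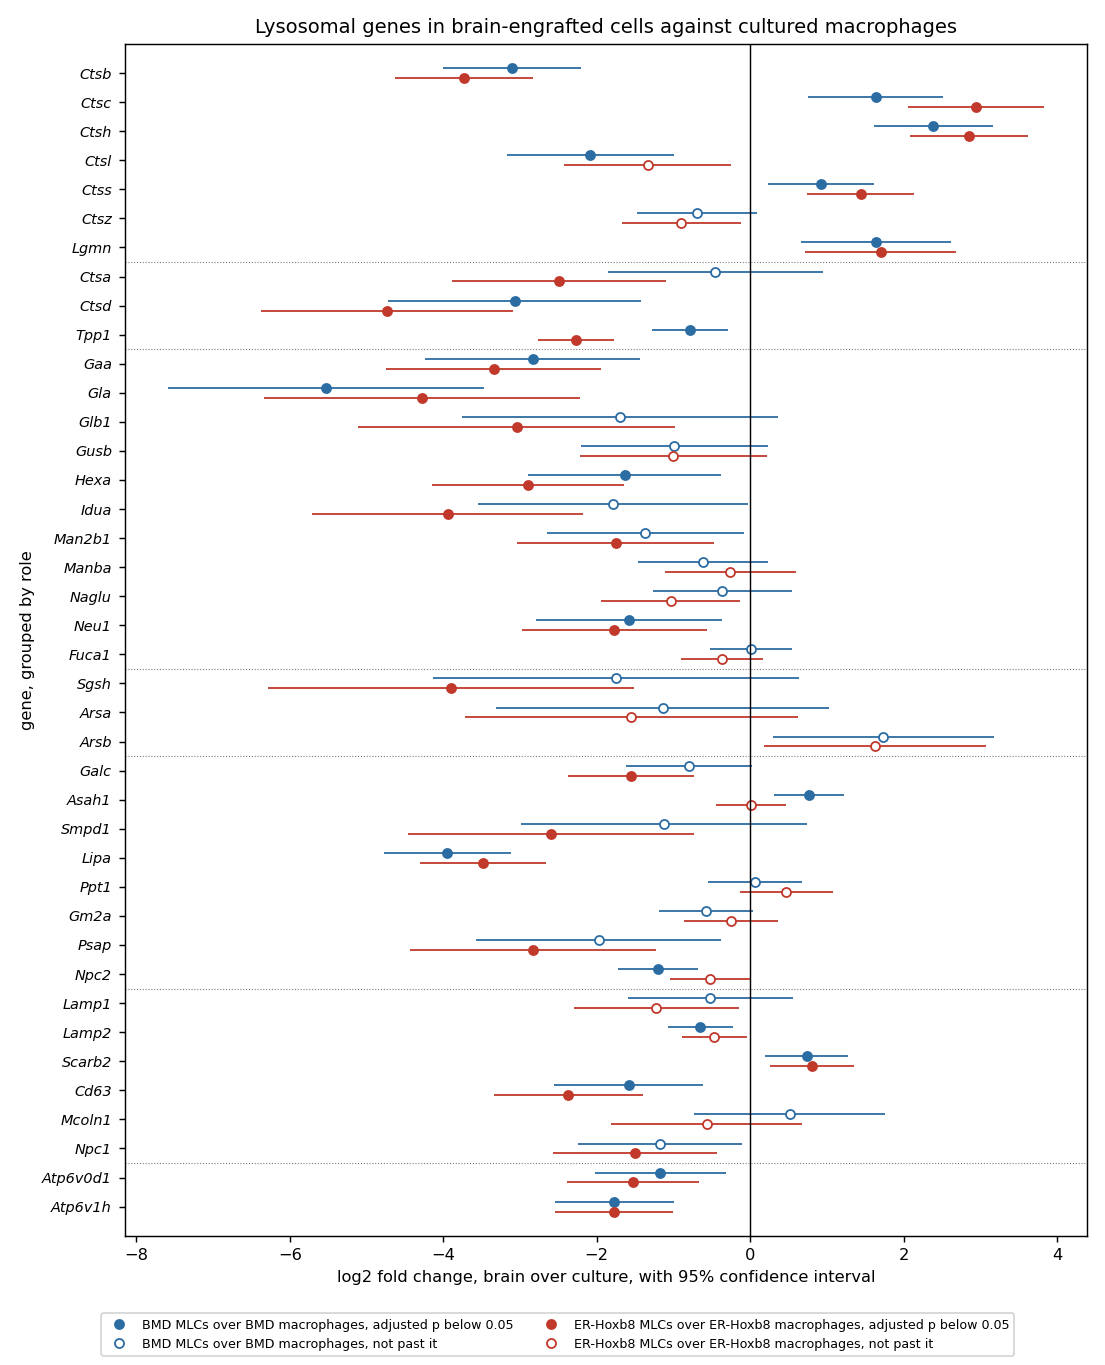
Difference between brain and culture for each of the 40 genes, as log2 fold change with its 95 percent confidence interval, for BMD MLCs against BMD macrophages (blue) and ER-Hoxb8 MLCs against ER-Hoxb8 macrophages (red). Filled symbols mark an adjusted p below 0.05.

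Most other genes of the proton pump were lower in brain as well. Other pump subunits were lower in 14 of 18 in BMD MLCs and in 15 of 18 in ER-Hoxb8 MLCs, with 0 higher, led by Atp6v0d2 (−8.20, SE 1.22, adjusted p = 2.08e-05 in BMD cells). The catalytic subunit gene Atp6v1a was lower in BMD cells (−3.46, SE 0.45, adjusted p = 3e-06), and in ER-Hoxb8 cells Atp6v0d2 (−12.32, SE 1.22, adjusted p = 2.55e-08) and Atp6v0a1 (−3.77, SE 0.50, adjusted p = 2.62e-06) led. Other hydrolases were 3 higher and 6 lower of 31 in BMD cells, with Ctse up (3.35) and Ctsk (−4.42) and Pld3 (−3.55, SE 0.84, adjusted p = 0.0025) down. In ER-Hoxb8 cells they were 3 higher and 11 lower, with Smpdl3a (4.40) up and Ctsk (−7.08) and Pld3 (−5.28) down.

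Other membrane proteins were 5 higher and 5 lower of 27 in BMD cells, where the channel gene Mcoln2 fell by 7.03, and 1 higher and 8 lower in ER-Hoxb8 cells. Of 12 sorting genes 5 were lower in each origin, with 1 higher in ER-Hoxb8 cells, including the adaptor gene Gga1 (−5.55) and the mannose-6-phosphate receptor gene Igf2r (−5.15) in BMD cells. Transcription and nutrient sensing genes were lower in 5 of 15 in both, with Rragd at −3.66 in BMD cells and Flcn at −3.05 in ER-Hoxb8 cells. Inhibitors of cysteine proteases were higher in 4 of 6 and lower in 1 in both. The stefins led, with Stfa2l1 (7.04, SE 1.34, adjusted p = 0.000325) and Stfa2 (5.73, SE 1.33, adjusted p = 0.00202) in BMD cells and Stfa2 (7.56, SE 1.33, adjusted p = 0.000113) and Stfa2l1 (7.54) in ER-Hoxb8 cells, and Cstb was lower in BMD cells (−2.77). Stefins are known from granulocytes too, and the neutrophil sums of these libraries are given above.

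Against WT microglia, the MLC groups differed in several proteases. BMD MLCs (n = 6 against 9) had 4 members higher and 5 lower, against 10.8 and 9.54 percent of all genes, which is near the background, and medians of 0.10 and 0.06. ER-Hoxb8 MLCs (n = 6 against the same 9) had 4 higher and 11 lower, against 14.9 and 18.9 percent, with medians of −0.12 and −0.10. These comparisons share the microglia libraries. Monocyte markers were higher than in microglia in 4 of 4 genes for BMD MLCs and in 3 of 4 for ER-Hoxb8 MLCs, border macrophage markers in 4 and 2 of 5, neutrophil markers in 8 and 0 of 10, lymphocyte markers in 0 and 3 of 3 tested and interferon response genes in 4 and 8 of 8. In BMD MLCs erythroid markers were lower in 2 of 2 tested, microglia markers in 5 of 6, macrophage markers in 1 of 6 and endothelium markers in 1 of 2 tested. Astrocyte markers there were 1 higher and 1 lower of 4 tested. The part of these lists in the member differences was not tested.

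Ctsh measured 6.80 to 8.12 (median 7.64) in microglia, below all BMD MLC values and overlapping with those of ER-Hoxb8 MLCs given above. Ctsc measured 8.95 to 10.55 (median 9.90) in microglia, below every MLC library. Ctsl, an endopeptidase, measured 7.58 to 8.78 (median 8.02) in microglia, 5.74 to 6.98 (median 6.29) in BMD MLCs and 3.53 to 6.20 (median 5.16) in ER-Hoxb8 MLCs. Microglia were above every MLC library for Ctsl. Galc, which digests galactosylceramide of myelin, measured 3.81 to 5.24 (median 5.01) in microglia, 6.30 to 7.18 (median 6.83) in BMD MLCs and 4.49 to 6.5 (median 5.34) in ER-Hoxb8 MLCs. BMD MLCs were above microglia throughout, and ER-Hoxb8 MLCs overlapped with both.

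BMD MLCs were higher in Galc (2.05, SE 0.30, adjusted p = 9.56e-06), Ctsh (2.00, SE 0.28, adjusted p = 5.49e-06), Ctsc (1.63, SE 0.32, adjusted p = 0.000439) and the tetraspanin gene Cd63 (1.27, SE 0.35, adjusted p = 0.0099). They were lower in Ctsl (−1.74, SE 0.39, adjusted p = 0.00177), the cholesterol exporter gene Npc1 (−1.22, SE 0.39, adjusted p = 0.0239), Lgmn (−1.02, SE 0.35, adjusted p = 0.0422), Scarb2 (−0.72, SE 0.20, adjusted p = 0.00911) and Tpp1 (−0.52, SE 0.18, adjusted p = 0.0381). No glycosidase, sulfatase or pump subunit of the list was called. With libraries shifted to one median there were 4 higher and 7 lower, and without BMD MLC libraries 3 to 6 there were 3 calls (2 higher and 1 lower).

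ER-Hoxb8 MLCs were higher in Ctsc (2.77, SE 0.32, adjusted p = 1.24e-07), Ctsh (1.05, SE 0.28, adjusted p = 0.00474), the carboxypeptidase gene Ctsz (0.76, SE 0.28, adjusted p = 0.0373) and Npc2 (0.51, SE 0.19, adjusted p = 0.0415). They were lower in Ctsl (−3.03, SE 0.39, adjusted p = 8.39e-07), Ctsd (−2.73, SE 0.60, adjusted p = 0.000729), Arsb, which digests dermatan sulfate (−2.57, SE 0.52, adjusted p = 0.000357), Npc1 (−2.01, SE 0.39, adjusted p = 0.000184) and Lgmn (−1.82, SE 0.35, adjusted p = 0.000213). Arsb measured 9.54 to 10.71 (median 10.00) in microglia and 5.37 to 9.26 (median 7.54) in ER-Hoxb8 MLCs, without overlap. By role, cysteine proteases were 3 higher and 2 lower, other proteases 2 lower, glycosidases 3 lower, sulfatases 1 lower, lipid enzymes and activators 1 higher and 1 lower, and membrane proteins 2 lower. With the GFPHox libraries alone there were 8 calls (3 higher and 5 lower). Adar was also higher in ER-Hoxb8 MLCs than in microglia (1.70, SE 0.51, adjusted p = 0.0109), beside their interferon response sums.

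ER-Hoxb8 MLCs against BMD MLCs (n = 6 and 6) gave 4 members higher and 7 lower, against 6.87 and 8.22 percent of all genes, with medians of −0.53 and −0.22. Higher were Ctsc (1.1, SE 0.35, adjusted p = 0.0285), Lipa (0.95, SE 0.33, adjusted p = 0.0499), Gm2a (0.94, SE 0.24, adjusted p = 0.00914) and Npc2 (0.78, SE 0.21, adjusted p = 0.012). Lower were Ctsd (−2.06, SE 0.65, adjusted p = 0.0328), Ctsa (−1.64, SE 0.56, adjusted p = 0.045), Galc (−1.43, SE 0.33, adjusted p = 0.00364), Ctsl (−1.29, SE 0.43, adjusted p = 0.0435) and Tpp1 (−1.16, SE 0.20, adjusted p = 0.00017), with Ctsh and Asah1 behind them. The values given above for Tpp1 do not overlap between these groups, while those for Ctsc, Ctsd, Galc and Ctsl do. Between the same groups, interferon response genes were higher in 8 of 8 and lymphocyte markers in 3 of 3 tested, and border macrophage markers were lower in 3 of 5, neutrophil markers in 3 of 10 and progenitor markers in 3 of 3 tested.

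This last count varied with the processing. With libraries shifted to one median it was 4 higher and 4 lower, while the share of called genes that were higher went from 45.5 to 57 percent and that of called members from 36.4 to 50 percent. Leaving out ER-Hoxb8 MLC 3 or 5 gave 4 or 5 calls, leaving out BMD MLC 1, 2, 4, 5 or 6 gave 4 to 7, the fit with no filter on low values gave 5, and the fit without BMD MLC libraries 3 to 6 gave 1.

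Some pathway genes differed from microglia as well. Of all genes, 10.8 and 9.54 percent were called higher and lower in BMD MLCs, and 14.9 and 18.9 percent in ER-Hoxb8 MLCs. In BMD MLCs the counts for other hydrolases and other membrane proteins were near these shares. In BMD MLCs Ctse (5.11) and Acp5 (3.33) were higher and Ctsf (−3.41) lower, within 3 higher and 4 lower of 31 other hydrolases. Cst3, the secreted inhibitor cystatin C, was lower in BMD MLCs (−3.60, SE 0.29, adjusted p = 4.21e-10) and in ER-Hoxb8 MLCs (−4.17, SE 0.29, adjusted p = 1.34e-11). ER-Hoxb8 MLCs had 2 other hydrolases higher and 8 lower, with Ctse at 4.09 and Ctsf lower (−7.83, SE 0.80, adjusted p = 1.25e-08), and inhibitors 3 higher and 1 lower of 6, with Cst7 at 3.58.

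The remaining lists gave, for BMD MLCs against microglia, 3 higher and 3 lower of 27 other membrane proteins, 2 lower of 18 pump subunits, 2 higher and 1 lower of 12 sorting genes, 1 lower of 6 inhibitors and 0 of 15 transcription and nutrient sensing genes. For ER-Hoxb8 MLCs they gave 4 higher and 7 lower other membrane proteins, 1 higher and 3 lower pump subunits, 4 higher and 2 lower sorting genes, with the sorting receptor gene Sort1 at −3.38, and 1 higher and 2 lower transcription and nutrient sensing genes. Between the MLC groups, other hydrolases had 0 higher and 2 lower, with Ctsf at −4.42, other membrane proteins 2 and 5, pump subunits 1 and 1, sorting genes 0 and 2, transcription and nutrient sensing genes 0 and 1, and inhibitors 2 higher, Cst7 (4.19) and Cstb (1.46).

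In progenitors, cells labelled Adar KO with sgRNA #1 differed from NTC cells (n = 3 and 3) in a single member. Galc measured 2.97, 2.42 and 2.50 in KO and 3.74, 4.14 and 4.03 in NTC progenitors, with no overlap. It was the only member called, lower by 1.34 (SE 0.19, adjusted p = 0.00586), where 0.279 percent of genes were higher and 0.639 percent lower, and 3 members had an unadjusted p below 0.05. Among pathway genes only the membrane glycoprotein gene Cd68 was called, at −0.91 (1 lower of 26 other membrane proteins). Some marker sums separated these libraries, with monocyte markers at 936 to 1301 CPM in KO and 1430 to 1905 CPM in NTC, border macrophage markers at 152 to 244 and 274 to 375 CPM, and macrophage markers at 214 to 230 and 246 to 329 CPM.

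In macrophages with sgRNA #1 (n = 3 against NTC libraries 1 and 3) Galc was again lower, and Ctsc was higher. Galc measured 4.19, 4.68 and 4.47 in KO and 6.38 and 6.58 in NTC macrophages (library 2, 6.38). Ctsc measured 12.04, 11.57 and 11.45 against 10.28 and 10.19, and Man2b1, a mannosidase, 9.37, 9.53 and 9.62 against 11.3 and 11. None of the 3 genes overlapped. Ctsh measured 6.13, 5.94 and 5.55 in KO macrophages, below the NTC values given above.

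Of the 40 members 4 were higher and 5 lower, against 14.4 and 7.32 percent of all genes. Higher were Ctsc (1.45, SE 0.18, adjusted p = 0.000155), Npc2 (0.71, SE 0.15, adjusted p = 0.00604), Ctsz (0.60, SE 0.12, adjusted p = 0.00487) and Atp6v1h (0.42, SE 0.10, adjusted p = 0.0136). Lower were Galc (−2.03, SE 0.21, adjusted p = 3.5e-05), Man2b1 (−1.65, SE 0.23, adjusted p = 0.000369), Ctsh (−1.59, SE 0.43, adjusted p = 0.021), Gaa (−1.12, SE 0.32, adjusted p = 0.0261) and Ctsa (−0.41, SE 0.13, adjusted p = 0.0378). The median was −0.06 for members and 0.05 for all genes. The libraries that differed in these genes also differed in the interferon response sum and in other marker sums. Border macrophage markers summed to 250 to 368 CPM in KO and 1886 to 2343 CPM in NTC macrophages, macrophage markers to 5502 to 6241 and 8336 to 9446 CPM, and monocyte markers to 507 to 1294 and 245 to 303 CPM. Neutrophil markers summed to 77.5 to 87.0 CPM in KO and 15.3 and 20.9 CPM in NTC. Endothelium markers summed to 103 to 142 against 37.7 and 48.6 CPM, and astrocyte markers to 66.8 to 69.1 against 36.5 and 37.9 CPM. The part of these lists in the member differences was not tested. With libraries shifted to one median there were 3 higher and 6 lower, and the share of called genes that were higher went from 66.4 to 52 percent and that of called members from 44.4 to 33.3 percent. Leaving out either NTC library gave 5 calls, with the remaining one assumed to vary as the other groups do.

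Pathway genes in these macrophages were 4 higher and 3 lower of 27 other hydrolases (Ggh 0.99, Pla2g15 −0.87, Arsg −0.82), 2 higher and 4 lower of 26 other membrane proteins, 4 higher of 18 pump subunits and 1 higher and 2 lower of 11 sorting genes. Of the MITF family, Tfec was higher (2.17) and Tfeb lower (−0.91), within 1 higher and 3 lower of 14. Inhibitors were higher in 2 of 3, with Cst7 at 2.19.

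The baricitinib set holds the same contrast in other libraries and adds the drug. Without drug, cells labelled Adar KO (n = 3 and 3) had 15 members higher and 2 lower, against 11.4 and 13.6 percent of 11339 genes, with medians of 0.30 and −0.03. Psap measured 14.58, 14.54 and 14.51 in KO and 12.93, 12.68 and 12.83 in NTC macrophages. Galc measured 3.93, 3.56 and 4.10 against 5.72, 5.54 and 5.68, and Ctsh 4.51, 4.55 and 4.81 against 6.46, 6.31 and 6.20. All 3 separated the groups, with Psap higher and Galc and Ctsh lower in KO, the direction that Galc and Ctsh also had in the sgRNA #1 macrophages above. Gaa went the other way, lower in KO there and higher here (0.93, SE 0.23, adjusted p = 0.00335). The mean over members, lower in the KO macrophages than in NTC macrophages 1 and 3 there, was higher in KO here. Psap and Sgsh, higher here, were not called there, but all KO values lay below those of NTC macrophages 1 and 3. Psap measured 14.82, 14.58 and 14.31 against 15.04 and 14.89 there, and Sgsh 4.17, 5.30 and 5.52 against 5.99 and 5.91. Man2b1, called lower there, measured 9.79, 9.58 and 9.55 in KO and 9.38, 9.31 and 9.29 in NTC here.

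Higher in KO were Psap (1.73, SE 0.21, adjusted p = 5.31e-07), Ctss (1.33, SE 0.24, adjusted p = 0.000122), Npc2 (1.31, SE 0.24, adjusted p = 0.000194), Ctsd (1.08, SE 0.24, adjusted p = 0.00119) and Sgsh (1.03, SE 0.25, adjusted p = 0.00252). Lower were Galc (−1.79, SE 0.19, adjusted p = 7.53e-08) and Ctsh (−1.70, SE 0.12, adjusted p = 4.9e-11). By role, cysteine proteases were 2 higher and 1 lower, other proteases 2 higher, glycosidases 4 higher, sulfatases 1 higher, lipid enzymes and activators 3 higher and 1 lower, membrane proteins 2 higher and pump subunits 1 higher. None of the differences reached 2 log2 units. The interferon response sums of the same libraries are given above, border macrophage markers summed to 283 to 426 CPM in KO and 897 to 1123 CPM in NTC, and monocyte markers to 516 to 632 and 287 to 336 CPM.

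Other genes of the pathway had more higher than lower calls too. Other hydrolases were 11 higher and 2 lower of 27, with Ctse (1.24) and the phospholipase gene Pla2g15 (1.21) up and Hyal1 (−1.97) down. Other membrane proteins were 8 higher and 2 lower of 26 (Slc29a3 1.66), pump subunits 9 higher and 2 lower of 18 (Atp6v0d2 1.74, Atp6v0e2 −1.0), transcription and nutrient sensing genes 3 higher of 14 (Tfec 3.09), sorting genes 1 higher and 1 lower of 11 and inhibitors 2 higher of 3. The same numbers of genes were tested in the other comparisons of this set.

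Baricitinib at 10 uM lowered many members in NTC macrophages and more in KO macrophages. In NTC cells (n = 3 and 3) 1 member was higher and 15 lower at 10 uM than without drug, against 5.77 and 7.81 percent of all genes, with medians of −0.39 and −0.01. In KO cells (n = 4 and 3) 5 were higher and 29 lower, against 33.5 and 31.6 percent, with medians of −1.19 and 0.05.

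Ctsd measured 13.89, 13.68 and 13.88 log2 CPM without drug and 12.53, 12.33 and 13.04 at 10 uM in NTC macrophages. In KO macrophages Ctsd went from 15.41, 14.75 and 14.52 to 10.75, 9.82, 10.75 and 10.69. The doses did not overlap in either genotype, and the KO values went from above NTC to below it. Idua measured, first without drug and then at 10 uM, 6.52, 6.17 and 6.32 against 5.12, 5.16 and 5.21 in NTC, and 7.45, 7.18 and 7.05 against 3.11, 2.73, 3.37 and 3.05 in KO. Gaa, the acid alpha-glucosidase, measured 6.04, 5.70 and 5.82 against 4.60, 4.59 and 4.67 in NTC, and 7.44, 6.62 and 6.28 against 2.79, 2.37, 2.87 and 3.00 in KO. The same crossing held for both glycosidases.

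Psap measured 11.98, 12.01 and 12.10 in NTC and 11.08, 10.28, 11.40 and 11.34 in KO at 10 uM, against the values without drug given above. Arsa measured 4.52, 4.56 and 4.50 without drug against 3.20, 3.67 and 3.70 at 10 uM in NTC, and 5.40, 4.42 and 4.29 against 1.00, 1.96, 1.90 and 1.89 in KO. For both genes all treated KO values lay below every untreated value. Ctsd, Gaa and Arsa are 3 of the 5 largest falls in KO cells and carry CACGTG in the sequences printed above, while Idua and Psap do not. Lamp1, which has 4 copies there, was not called in KO cells, with 7.66, 7.83 and 7.87 without drug against 8.21, 8.41, 7.83 and 7.82 at 10 uM (0.28, SE 0.16, adjusted p = 0.12).

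A smaller group rose. Ctsh measured 7.14, 7.19, 7.00 and 6.95 in KO and 6.36, 6.38 and 6.16 in NTC at 10 uM, so that KO passed from below NTC to above it. Arsb measured 5.09, 5.44 and 5.44 without drug and 7.30, 7.58, 7.45 and 7.16 at 10 uM in KO, and 5.90, 4.85 and 5.07 against 6.72, 6.60 and 6.31 in NTC. Galc measured 4.64, 4.71, 4.92 and 4.32 in KO and 5.35, 5.54 and 5.56 in NTC at 10 uM. The Galc values of KO cells stayed below all NTC values at both doses.

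In NTC cells the drug raised Arsb (1.27, SE 0.32, adjusted p = 0.00953), and the largest falls were Gaa (−1.23, SE 0.23, adjusted p = 0.000674), Ctsd (−1.18, SE 0.24, adjusted p = 0.00153), Idua (−1.17, SE 0.16, adjusted p = 1.83e-05), Arsa (−1.0, SE 0.25, adjusted p = 0.00915) and Sgsh (−0.88, SE 0.25, adjusted p = 0.018). By role, 2 cysteine proteases, 2 other proteases, 5 glycosidases, 2 sulfatases and 4 lipid enzymes and activators fell, and no membrane protein or pump subunit of the list was called. Without NTC library 1 at 0 uM there were 10 calls. Marker sums moved as well. Border macrophage markers summed to 1991 to 2199 CPM at 10 uM against 897 to 1123 CPM without drug, monocyte markers to 116 to 140 against 287 to 336 CPM, and macrophage markers to 4348 to 4654 against 5670 to 5794 CPM.

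In KO cells the drug raised Ctsh (2.45, SE 0.12, adjusted p = 1.93e-15), Arsb (2.05, SE 0.30, adjusted p = 1.07e-06), Galc (0.78, SE 0.18, adjusted p = 0.000379), the fucosidase gene Fuca1 (0.32, SE 0.09, adjusted p = 0.00398) and the thioesterase gene Ppt1 (0.25, SE 0.10, adjusted p = 0.0299). The largest falls were Ctsd (−4.39, SE 0.22, adjusted p = 4.5e-15), Idua (−4.16, SE 0.15, adjusted p = 2.96e-17), Gaa (−4.02, SE 0.21, adjusted p = 1.01e-14), Psap (−3.52, SE 0.20, adjusted p = 2.55e-14) and Arsa (−3.01, SE 0.24, adjusted p = 1.37e-11). Adar itself fell in these cells (−4.61, SE 0.45, adjusted p = 8.64e-10), the interferon response sum was lower too, and the macrophage marker sum was 2898 to 3374 CPM at 10 uM against 5325 to 5486 CPM without drug. Border macrophage markers summed to 1648 to 2201 CPM at 10 uM and monocyte markers to 125 to 186 CPM, against the values without drug given above, and the part of these lists in the member differences was not tested. By role, cysteine proteases were 1 higher and 5 lower, other proteases 3 lower, glycosidases 1 higher and 10 lower, sulfatases 1 higher and 2 lower, lipid enzymes and activators 2 higher and 5 lower, membrane proteins 3 lower and pump subunits 1 lower.

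The test of the difference between genotypes in their response called 26 members, 3 with a higher and 23 with a lower response in KO, against 38.8 percent of all genes. Higher were Ctsh (2.47, SE 0.17, adjusted p = 1.37e-10), Galc (0.95, SE 0.26, adjusted p = 0.00525) and Fuca1 (0.40, SE 0.14, adjusted p = 0.0227). Lower were Ctsd (−3.21, SE 0.32, adjusted p = 4.71e-08), Idua (−2.99, SE 0.22, adjusted p = 6.51e-10), Gaa (−2.79, SE 0.31, adjusted p = 1.52e-07), Psap (−2.74, SE 0.29, adjusted p = 6.79e-08) and Arsa (−2.01, SE 0.34, adjusted p = 5.18e-05). Glycosidases gave 9 of the lower calls and other proteases 3. For Adar the difference was −3.21, SE 0.66, adjusted p = 0.000373. Fitting without KO library 2 at 0.4 uM, the library with the high interferon response sum, gave 29 calls (3 and 26).

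**Figure D3:**
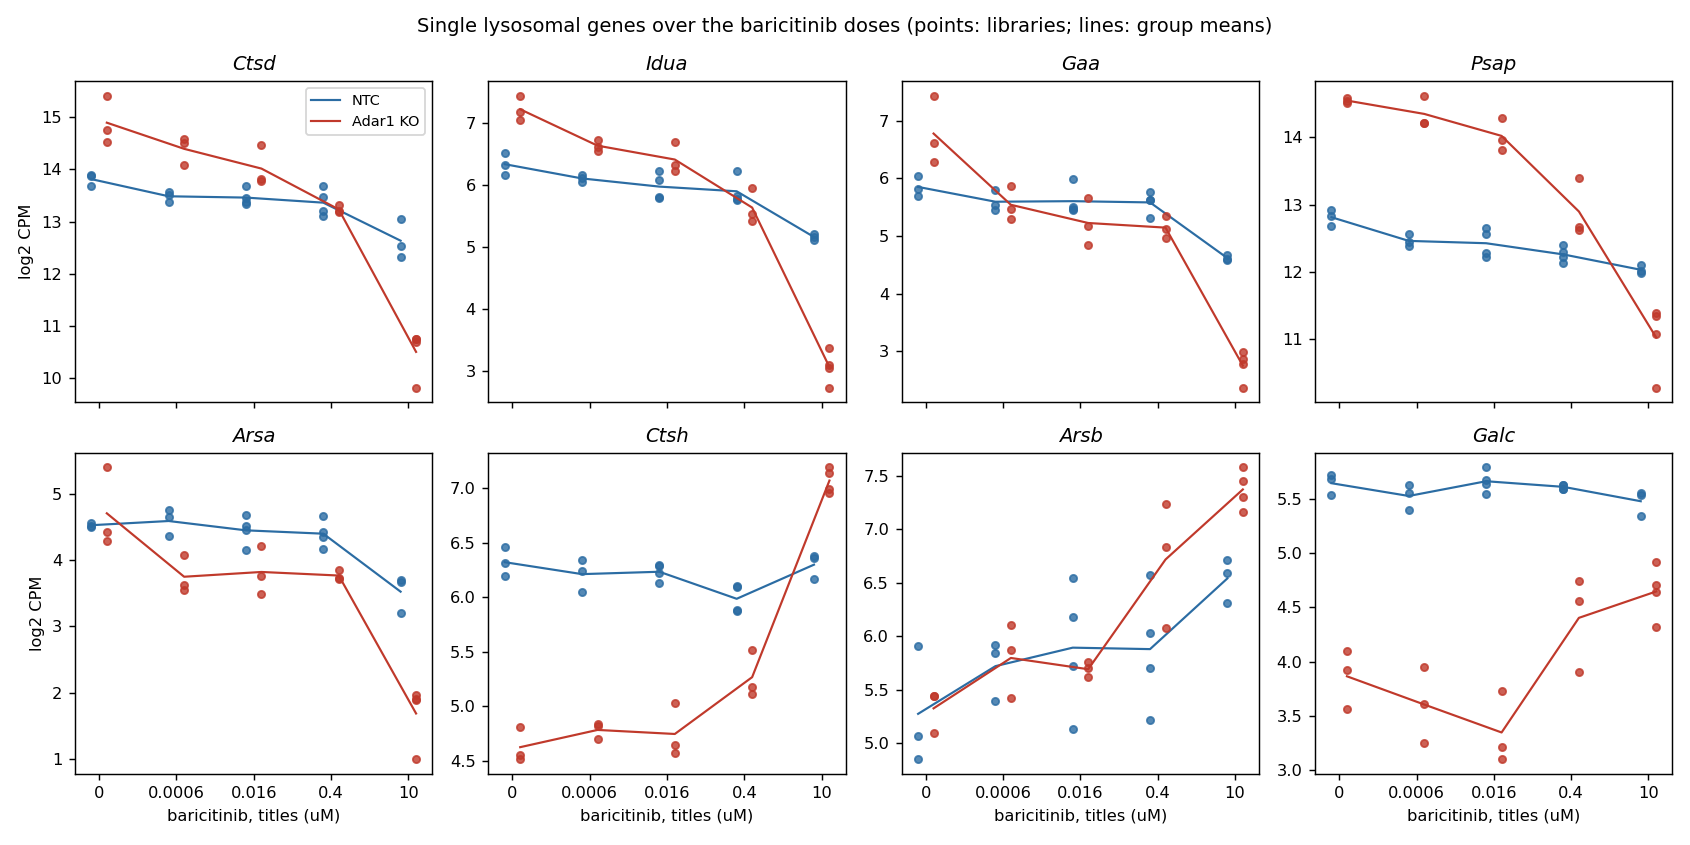
Log2 CPM of Ctsd, Idua, Gaa, Psap, Arsa, Ctsh, Arsb and Galc in each library over 5 doses of baricitinib, for NTC (blue) and Adar KO (red) macrophages, with lines through group means. Falls are in the first genes and rises in the later ones.

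At 10 uM itself, KO macrophages (n = 4 against 3 NTC) had 7 members higher and 21 lower, against 21.1 and 23.4 percent of all genes, with medians of −0.39 and 0.00. Lower were Ctsd (−2.13, SE 0.22, adjusted p = 1.29e-08), Idua (−2.10, SE 0.15, adjusted p = 2.38e-11), Gaa (−1.86, SE 0.21, adjusted p = 6.02e-08), Arsa (−1.83, SE 0.24, adjusted p = 4.37e-07) and the acid sphingomyelinase gene Smpd1 (−1.77, SE 0.15, adjusted p = 6.35e-10). Higher were Lamp1 (1.13, SE 0.16, adjusted p = 1.47e-06), Cd63 (0.84, SE 0.16, adjusted p = 7.75e-05), Arsb (0.83, SE 0.30, adjusted p = 0.0254), Ctss (0.78, SE 0.22, adjusted p = 0.0049) and Ctsh (0.77, SE 0.12, adjusted p = 4.46e-06). By role, glycosidases were 1 higher and 8 lower, other proteases 3 lower, sulfatases 1 higher and 2 lower, lipid enzymes and activators 1 higher and 4 lower, cysteine proteases 2 higher and 3 lower and membrane proteins 2 higher and 1 lower. Neither pump subunit was called. Some marker sums separated these groups as well. Macrophage markers summed to 2898 to 3374 CPM in KO and 4348 to 4654 CPM in NTC at 10 uM. Progenitor markers summed to 11.5 to 15.1 and 2.18 to 2.82 CPM, and microglia markers to 224 to 264 and 189 to 204 CPM. Border macrophage and monocyte sums overlapped, and the part of these lists in the member differences was not tested.

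Many pathway genes also differed with the drug. Of all genes, 33.5 and 31.6 percent were called higher and lower in KO cells, and 5.77 and 7.81 percent in NTC cells. Counts for transcription and nutrient sensing genes in KO cells and for sorting genes in NTC cells were near or below these shares. In KO cells at 10 uM other hydrolases were 3 higher and 18 lower than without drug, with Pla2g15 (−3.07, SE 0.19, adjusted p = 2.04e-13) and Pld3 (−3.0) falling and Rnaset2a (1.53) rising. Other membrane proteins were 3 higher and 17 lower, including the chloride transporter gene Clcn7 (−3.12) and the nucleoside transporter gene Slc29a3 (−2.93). Pump subunits were 2 higher and 10 lower (Atp6v0d2 −4.89, SE 0.38, adjusted p = 1.5e-11, Tcirg1 −3.01, SE 0.22, adjusted p = 2.68e-12). Transcription and nutrient sensing genes were 3 higher and 4 lower, with the folliculin gene Flcn (−2.86, SE 0.15, adjusted p = 7.54e-15) and Tfeb (−2.58, SE 0.27, adjusted p = 4.23e-09) down and Rraga (1.30) and Lamtor2 (0.99) up. Sorting genes were 4 higher and 5 lower, with Gga1 at −6.56, and inhibitors 1 lower.

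In NTC cells the same lists gave 1 higher and 8 lower other hydrolases (Ctsk −2.55), 3 lower other membrane proteins, 7 lower pump subunits (Atp6v0d2 −3.93), 1 lower sorting gene and 1 higher and 4 lower transcription and nutrient sensing genes, with Tfec (1.05) up and Tfeb (−1.07) and Flcn (−0.90) down. Between genotypes at 10 uM they were 4 higher and 13 lower for other hydrolases (Rnaset2a 1.27, Hyal2 −1.63), 7 and 9 for other membrane proteins (Tpcn2 −2.20), 6 and 5 for pump subunits (Tcirg1 −1.42), 3 and 4 for sorting (Gga1 −4.07), 4 and 4 for transcription and nutrient sensing (Tfe3 −1.60, Flcn −1.47) and 2 higher inhibitors.

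For the difference in response, other hydrolases gave 1 higher and 14 lower (Pla2g15 −2.52, Acp2 −2.17), other membrane proteins 3 and 13, pump subunits 2 and 6 (Tcirg1 −2.27), sorting genes 1 and 4 (Gga1 −5.0), transcription and nutrient sensing genes 2 and 4 (Flcn −1.96, Tfe3 −1.77) and inhibitors 0. For the difference between brain and culture by origin, other hydrolases gave 2 and 1, other membrane proteins 1 and 2, sorting genes 0 and 1 and inhibitors 1 and 0, with 0 for pump subunits and for transcription and nutrient sensing genes.

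Laid side by side over 17 comparisons, single genes differ in how their calls are spread. Galc was lower in KO than in NTC cells in each of the 4 comparisons between them, by 1.34 in progenitors, 2.03 in macrophages of the sgRNA #1 experiment, 1.79 in the baricitinib set without drug and 0.83 at 10 uM. All 4 used sgRNA #1, so guide and line cannot be told apart in them. Ctsh was lower in KO macrophages without drug in both experiments (−1.59 and −1.70) and higher at 10 uM (0.77).

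**Figure D4:**
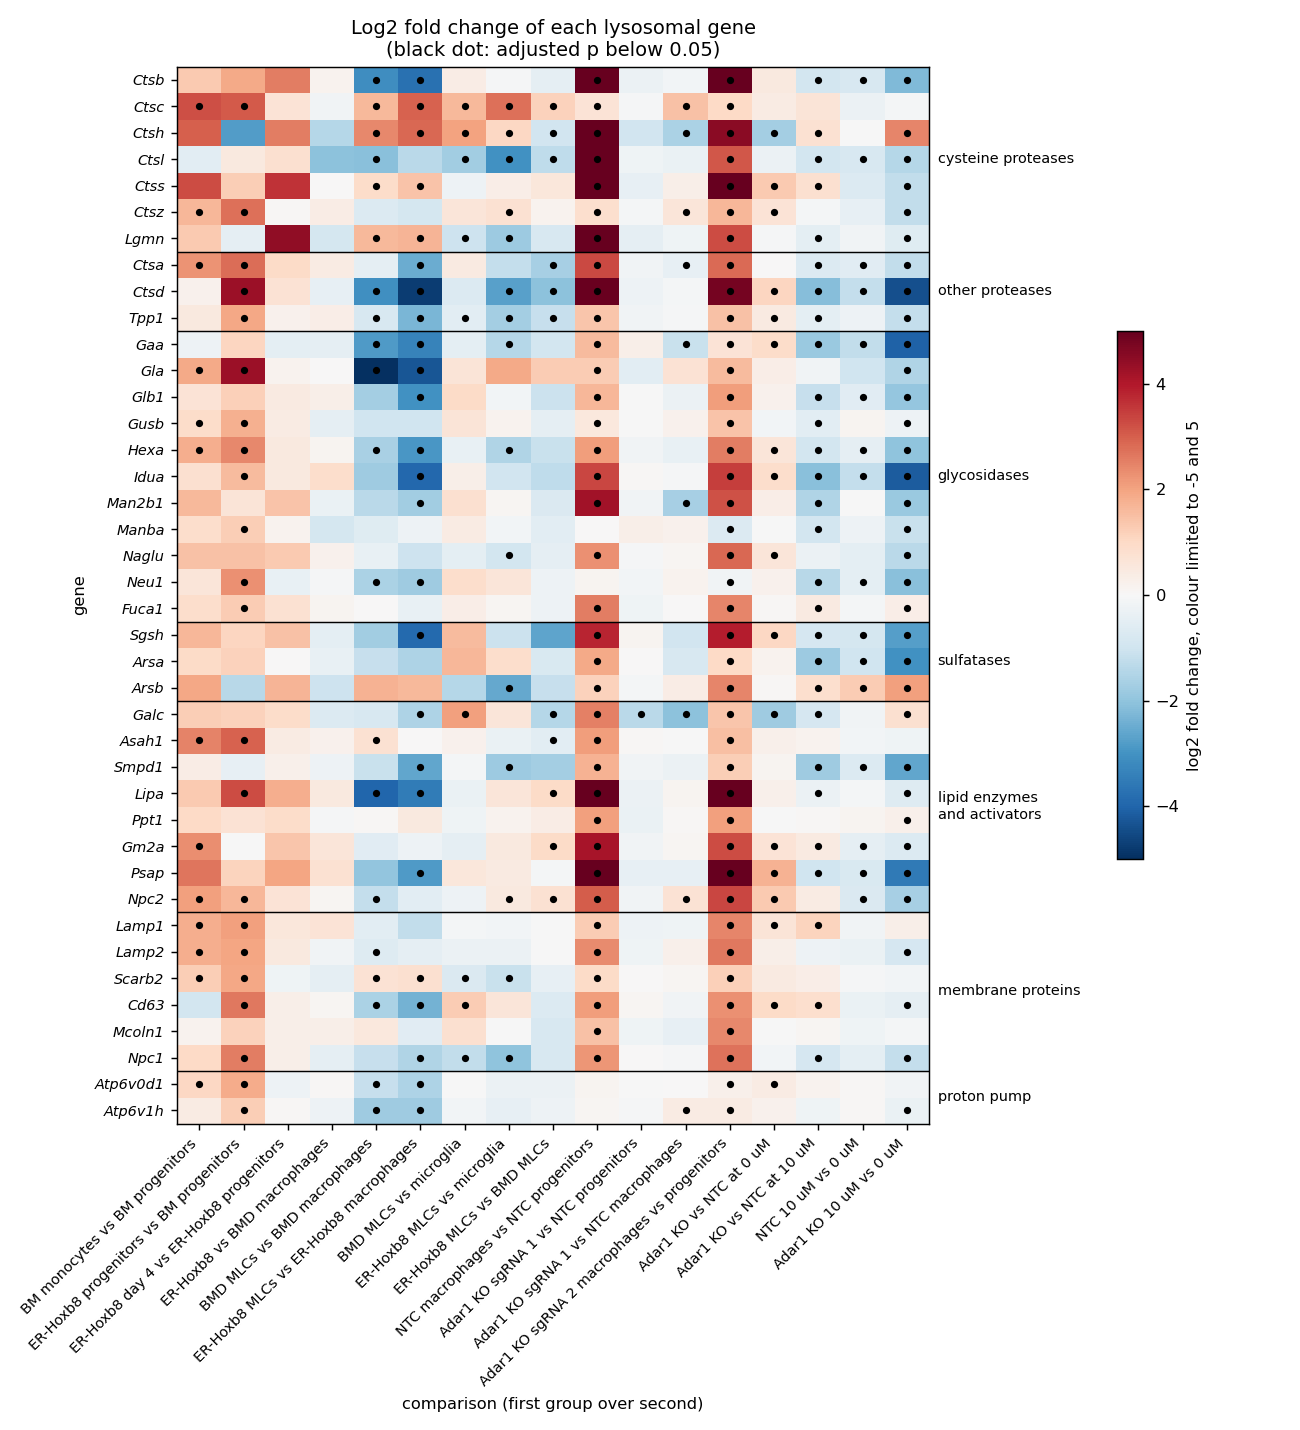
Log2 fold change of each of the 40 genes in 17 comparisons between groups, with colour limited to the range from −5 to 5. A black dot marks an adjusted p below 0.05.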

How the data were processed

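RNA was sequenced in bulk from 92 mouse libraries, and all 92 columns were used. Per the submitters' processing notes, the authors trimmed reads with fastp, aligned them with kallisto (version 0.46.0), summarized genes with tximport and normalized with the TMM method of edgeR, and the deposited values are log2 CPM with a small offset. One table entry without a gene name (0.00226 to 0.0582 percent of a library) was left out, leaving 29956 named genes.

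The members and all other lists (6 lists with 111 other genes of the pathway, and 13 marker lists) were chosen with earlier results of these data known. The deposited values were used as they are. Columns with the same lowest value were taken as normalized together, which gave 6 sets, and tests were made only inside a set. In each set, limma (version 3.58.1, R 4.3.3) fitted group means over all libraries with moderated variances and a mean-variance trend, on genes above 1 CPM in at least 3 libraries (6 in the set with cells from brain), and p-values were adjusted by the Benjamini-Hochberg method over all genes tested. There were 17 comparisons of groups and 2 tests of a difference between effects. NTC macrophage library 2 has a lowest value of its own and entered no test. Scripts were tested on simulated data. Sums, promoter searches and figures were made in Python 3.11.15 with numpy 2.4.6 and pandas 2.3.3.

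Named members are the 5 largest positive and 5 largest negative differences among those called in a comparison, named pathway genes up to 2 of each direction in a list, and Adar in comparisons of edited cells. Further genes were named after their values were seen and were not refitted. Some pathway genes among the largest differences are not reported here. Alternatives were no filter, log2 of CPM plus 1, libraries shifted to one median, a fit of the compared groups alone, a replicate block, an added limit of 2 on the log2 fold change, GFPHox, WTHox or WT microglia libraries alone, each library left out in turn, and, after seeing the data, fits without libraries that stood apart.

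Same-numbered libraries deviated together from their group means in ER-Hoxb8 progenitors and day 4 cells (correlations 0.23, 0.37 and 0.43) and in sgRNA #1 KO and NTC progenitors (0.34, 0.16 and 0.22). The pairing comes from these correlations and not from the labels.

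Library sizes were not used here. With a prior count of 2 assumed, mean depth per set was 13.7 to 40.6 M reads, and the lowest values correspond to 0.0493 to 0.145 CPM. Doses are those of the titles, which differ from the protocol text for the 0.0006 and 0.016 uM groups.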

Additional observations from a re-analysis of the deposited data

Results flagged for a closer look

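In macrophages labelled Adar KO at 10 uM baricitinib, library 2 had a mean over the 40 lysosomal genes of 7.11 log2 CPM, while the other 3 libraries of its group had 7.35 to 7.38. A Dixon ratio above its critical value set this library apart. The same check over 7 groups of 4 to 10 libraries covered 287 values, of which 27 were past the critical value (1 mean and 26 single genes). By chance about 1 in 20 would be. Microglia library 8 gave 8 of these values and BMD MLC library 3 gave 5.

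Differences that themselves differed between groups were set apart as well. Tpp1 was lower in brain than in culture by a larger amount in ER-Hoxb8 than in BMD cells (−1.49), the only member called in that test (1 of 40, against 3.23 percent of all genes), and the call was lost without ER-Hoxb8 macrophage 3 or BMD macrophage 3 and without BMD MLC libraries 3 to 6. The response to 10 uM baricitinib differed between KO and NTC macrophages in 26 of 40 members, against 38.8 percent of all genes. It was higher in KO for Ctsh (2.47), Galc (0.95) and Fuca1 (0.40), and lower for Arsa (−2.01), Psap (−2.74), Gaa (−2.79), Idua (−2.99) and Ctsd (−3.21). In the latter 5 genes all KO values were below all NTC values at 10 uM. Without drug all KO values were above all NTC values in 4 of them, and for Arsa 1 of 3 was above and 2 were below.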

How the results depend on the processing

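For the named members, 121 differences were refitted under 1997 alternative values, of which 1724 kept direction and call, 273 kept direction and lost the call, and 0 reversed. Counts of called members moved by more than 1.5 times as follows, and beyond what each alternative removes the cause was not tested.

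Asking also for a log2 fold change of at least 2 gave 5 for BM monocytes, 12 for ER-Hoxb8 against BM progenitors, 7 and 16 for BMD and ER-Hoxb8 MLCs against macrophages, 1 and 5 against microglia and 1 between MLC groups. It gave 23 for NTC and 25 for sgRNA #2 macrophages against progenitors, 0 and 1 for sgRNA #1 progenitors and macrophages against NTC, 0 and 2 for KO against NTC at 0 and 10 uM, 0 and 12 for 10 uM against 0 uM in NTC and KO, and 0 and 6 for the differences between effects in brain and with drug. A fit of the compared groups alone gave 33 for BM monocytes. GFPHox libraries alone gave 8 for ER-Hoxb8 MLCs against microglia, WTHox libraries alone 2 for the brain difference, and no filter 5 between MLC groups. Without BMD MLC libraries 3 to 6 the counts were 7 against BMD macrophages, 3 against microglia, 1 against ER-Hoxb8 MLCs and 0 for the brain difference.

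Leaving out 1 library at a time gave these lowest and highest counts. They were 2 and 7 for BM monocytes (13 with all), 18 and 32 for ER-Hoxb8 against BM progenitors, 0 and 12 for day 4, 0 and 2 for ER-Hoxb8 against BMD macrophages, 13 and 21 for BMD MLCs and 19 and 27 for ER-Hoxb8 MLCs against macrophages. Against microglia they were 6 and 9, then 12 and 18, and between MLC groups 4 and 10. They were 35 and 36 for NTC macrophages, 1 and 1 for sgRNA #1 progenitors, 5 and 9 for sgRNA #1 macrophages and 39 and 40 for sgRNA #2. In the baricitinib set they were 16 and 18 at 0 uM, 26 and 30 at 10 uM, 10 and 15 for NTC and 33 and 34 for KO between doses, and 20 and 26 for the difference in response. For the brain difference they were 0 and 1.

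With a replicate block the counts were, in the order of the report's comparisons, 12, 24 and 0 in the first set, 36 for NTC and 40 for sgRNA #2 macrophages, 0 between cultured macrophages, 17, 25 and 1 for brain against culture, 8, 14 and 10 among brain groups, 1 and 10 for sgRNA #1, and 17, 15, 33, 25 and 29 in the baricitinib set. The block changed no count by more than 1.5 times. Pairs shared only a number outside the comparisons named with the processing, and, among comparisons with 3 or more pairs, only for day 4 and the sgRNA #1 progenitors did each library correlate best with its own number. Some values lay near the floor, such as Gla in brain, and the part of depth in them was not tested.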
